A study of Mus musculus with 12 samples.

Results

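Tcf21, Nr2f1, Nr2f2, Maf, Osr1 and Lhx2 encode 6 transcription factors associated with the interstitial lineage of the gonad. They were taken by symbol from the 32285 genes of the deposited tables, and all 6 were found there. Their levels were measured in single cells of fetal mouse gonads, in the gonadal somatic cells as a whole and in the cell classes within them.

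In the fetal gonad, supporting cells surround the germ cells and become Sertoli cells in a testis or pre-granulosa cells in an ovary. The interstitial lineage lies between them, derives in large part from the coelomic epithelium and the adjoining mesenchyme, and gives rise to stromal and steroid-producing cells. Transcription factors of mesenchyme mark its progenitors. TCF21 is a basic helix-loop-helix factor of the mesenchyme of many organs. NR2F1 and NR2F2 are orphan nuclear receptors of the COUP-TF family, and NR2F2 is widely used as a marker of gonadal interstitial progenitors. MAF is a basic leucine zipper factor that also acts in macrophages, OSR1 is a zinc finger factor of the intermediate mesoderm from which kidney and gonad arise, and LHX2 is a LIM homeodomain factor best known from forebrain, eye and limb.

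The libraries came from mouse gonads on a mixed B6CBAF1/JRj background at embryonic day 12 (23 ± 3 tail somites). Wild-type (WT) gonads were compared with gonads of 2 mutants of WT1, a zinc finger transcription factor of the early gonad made with or without the amino acids KTS. The -KTS KO cannot make the variant without KTS, which is the one that binds DNA as a transcription factor. The +KTS KO cannot make the variant with KTS, makes more of the other, and is a mouse model of Frasier syndrome. Each of the 3 genotypes was sampled in both sexes, giving 6 groups of 2 libraries and 12 libraries in all. Both gonads of an embryo were taken without the mesonephros. Gonads of more than 1 embryo were pooled in the -KTS KO samples, so the spread between libraries may not mean the same in every group, and p-values measure only the spread between these libraries. Counting at the 3' end of transcripts does not tell the WT1 variants apart, so the genotype itself could not be checked.

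Lhx2 lies at chr2:38339281-38369733 on the plus strand, and Osr1 at chr12:9570116-9581500 on the plus strand (GRCm38, GENCODE M21 genes). The other 4 are on the minus strand, Nr2f2 at chr7:70351944-70366735, Maf at chr8:115682942-115707794, Tcf21 at chr10:22817281-22820174 and Nr2f1 at chr13:78188973-78199757. Because the mutants differ in a DNA-binding factor, the sequence just upstream of the start was read for the members with a RefSeq promoter entry that begins outside the GENCODE gene (GRCm38.p6). The motifs searched on both strands were the EGR-type sites GCGGGGGCG and GCGTGGGCG, which the variant without KTS is known to bind, and the repeat TCCTCCTCC. They are in capitals where present.
Lhx2, chr2:38339031-38339280, plus strand: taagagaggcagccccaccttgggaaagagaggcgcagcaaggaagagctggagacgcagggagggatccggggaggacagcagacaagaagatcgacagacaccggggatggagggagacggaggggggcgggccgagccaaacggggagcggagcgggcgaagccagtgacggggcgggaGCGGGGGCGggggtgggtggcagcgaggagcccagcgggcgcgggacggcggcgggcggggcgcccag
Tcf21, chr10:22820175-22820393, minus strand: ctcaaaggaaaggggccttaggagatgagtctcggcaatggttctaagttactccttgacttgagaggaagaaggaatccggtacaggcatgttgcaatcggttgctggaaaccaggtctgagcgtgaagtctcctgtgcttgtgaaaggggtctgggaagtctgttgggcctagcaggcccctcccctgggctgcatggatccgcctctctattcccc
Nr2f2, chr7:70366747-70366996, minus strand: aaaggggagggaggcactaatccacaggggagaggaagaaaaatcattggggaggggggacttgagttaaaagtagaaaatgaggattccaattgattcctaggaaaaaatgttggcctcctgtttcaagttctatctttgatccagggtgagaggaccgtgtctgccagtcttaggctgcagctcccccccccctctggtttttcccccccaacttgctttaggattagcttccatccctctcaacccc

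GCGGGGGCG was present once, in Lhx2, starting 68 bases before the start of the gene. Of 32851 mouse promoters, 2.57% held it in the 250 bases before the start, 0.536% held GCGTGGGCG and 2.45% held TCCTCCTCC. A match is a description of these letters and not of a bound site. Maf and Osr1 had no entry, and the Nr2f1 entries begin inside the gene.

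After filtering, 77545 cells were kept, and 66706 of them were gonadal somatic, that is, not in clusters named germ, endothelial, immune, erythroid or mesonephric. Library totals ran from 108111924 to 147968666 UMIs (unique molecular identifiers, each standing for 1 captured RNA molecule). At most 33 of the kept barcode sequences were shared by any 2 libraries. Xist ran from 536 to 751 CPM (UMIs of a gene scaled to a common library total) in the XX libraries and from 0.0399 to 0.168 in the XY libraries, and the summed level of 4 Y-linked genes from 0 to 0.044 against 129 to 182 CPM, so the sex labels held. Some libraries stood apart. XX -KTS KO replicate 2 had 59.6% of its barcodes past the filters against 76.6% or more in the others. XY +KTS KO replicate 1 had a summed level of 20 immediate early genes (the Fos, Jun and Egr1 group of rapidly induced genes) of 4284 CPM against 1121 to 1816 in the other libraries. The 2 XY +KTS KO libraries also differed in their supporting-like cells, with 3227 against 187. Cells of clusters left unnamed went the other way, at 2.80% and 43.97% of their somatic cells, and made up 49.8% and 43.7% in XX +KTS KO. Of these unnamed cells, 78.05% in XY and 80.7% in XX +KTS KO lay in cluster 0. It scored highest for pre-supporting markers but was led by Cyp11a1, Pnmt and Inha, with more markers of steroid-producing cells among its leading genes. The supporting-like values of +KTS KO do not include these cells. In XX -KTS KO, replicate 1 held 142 unnamed cells and replicate 2 held 1035. Of the unnamed cells of this group, 99.75% lay in cluster 15. That cluster had a median of 3037 UMIs and was led by AY036118, Gm42418 and Lars2. In XX WT, 57.2% of the unnamed cells lay in cluster 25, which was led by Plac8, Egfl6 and Pdgfrl. It had 165 CPM of Maf and 78.4 CPM of Nr2f1, and 91.4% of its 629 cells came from XX WT. The part of this cluster in the sex differences of Maf and Nr2f1 was not tested. Unnamed cells count in the somatic sums and in the denominators of the class shares.

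The cells were clustered with the 6 members left out of the genes used, and the clusters were named by markers. The -KTS KO libraries held 0 to 3 interstitial-like cells each, so for that class no -KTS KO test was run. A wider progenitor-like class was therefore formed after the data had been seen, from the clusters named interstitial-like, matrix-rich mesenchyme-like (named from the collagen and matrix genes Col1a1, Col1a2, Col3a1, Dcn, Lum, Ogn, Postn and Mfap4) or coelomic epithelial-like. Different clusters made up this class in the 3 genotypes. Clusters 1, 7 and 13 held 50.04%, 28.6% and 19.9% of the progenitor-like cells of XX -KTS KO, cluster 16 held 33.5% in XX WT, cluster 10 held 48.9% in XY WT and cluster 5 held 44.4% in XX +KTS KO. The supporting-like class, made of Sertoli-like, pre-supporting-like and pre-granulosa-like cells, differed likewise. Cluster 6 held 99.4% of it in the XX and 99.2% in the XY libraries of -KTS KO, cluster 2 held 80.4% in XX WT, cluster 12 held 57.9% in XY WT and cluster 9 held 92.8% in XY +KTS KO. Cluster 12 was named Sertoli-like and clusters 2, 6 and 9 pre-granulosa-like. Pre-supporting-like cluster 14 held a further 38.45% in XY WT. In XX +KTS KO, pre-supporting-like clusters 29 and 28 held 47.0% and 28.3% of the class. Of the XY +KTS KO cells, 3167 lay in cluster 9, while replicate 2 had only 187 supporting-like cells. Cluster 9 thus came mostly from replicate 1, the library with high immediate early genes. Fos, Fosb and Junb were among its leading genes. Some names were weak, since clusters 1, 4, 6, 10, 11, 13, 14 and 17 had 0 markers of their type among their 10 leading genes. Cluster 6 was named on 4 detected pre-granulosa markers and cluster 2 on 6. The summed level of the 7 pre-granulosa markers was 391 to 518 CPM in XX -KTS KO somatic cells and 1182 to 1202 CPM in XX WT.

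The members were not alike in where they were found. Tcf21 was at a median of 486 CPM in interstitial-like cells, 476 in matrix-rich mesenchyme-like cells and 372 in coelomic epithelial-like cells. These are medians over the libraries with at least 20 cells of a class, and the genotypes that fill a class differ. In supporting classes the level of Tcf21 depended on the group. XX WT had 7.18 and 5.70 CPM in pre-granulosa-like and 5.82 and 3.24 CPM in pre-supporting-like cells. XY WT had 123 and 65.2 CPM in pre-supporting-like and 10.4 and 36.6 CPM in Sertoli-like cells. Nr2f2 was also higher in these 3 classes, at 327 CPM in matrix-rich mesenchyme-like, 193 in interstitial-like and 126 in coelomic epithelial-like cells. In WT libraries it was at 34.2 and 49.2 CPM in XX pre-granulosa-like cells and at 6.40 and 20.5 CPM in XY Sertoli-like cells. Nr2f1 was highest in matrix-rich mesenchyme-like cells (76.2 CPM). In XX WT it was at 16.8 and 22.3 CPM in interstitial-like cells and at 14.0 and 17.7 CPM in pre-granulosa-like cells, which overlapped. Osr1 was at 21.7 CPM in matrix-rich mesenchyme-like cells, at 2.13 CPM in coelomic epithelial-like cells and below 1 CPM in interstitial-like and supporting-like cells. Maf had its highest level outside the somatic gonad, at 290 CPM in immune-like cells, whose range of 180 to 419 CPM over 6 libraries lay above every somatic class except matrix-rich mesenchyme-like cells (54.4 to 209 CPM). Lhx2 had no class with a median above 1.40 CPM, and that median was in germ-like cells.

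**Figure D1:**
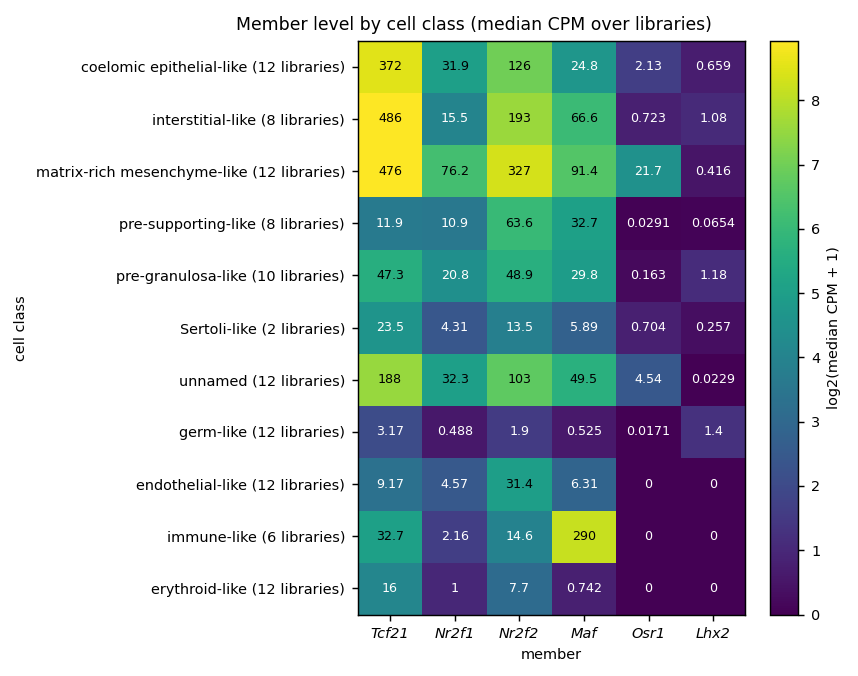
Level of each member (columns) in each cell class (rows), as the median CPM over the libraries with at least 20 cells of the class, printed in the cell and coloured on a log2 scale. Tcf21 and Nr2f2 are high in the top 3 rows, Osr1 is high in matrix-rich mesenchyme-like cells, Maf in immune-like cells, and Lhx2 is low in every row. The pre-granulosa-like row holds cells of all 3 genotypes, in different clusters.

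At a fixed depth of 5000 UMIs per cell, the share of progenitor-like cells with a UMI of Tcf21 ran from 42.9% to 56.97% in XX WT and from 86.4% to 90.4% in XY WT, and that of Nr2f2 from 45.9% to 56.1% over the 4 WT libraries. Osr1 had a UMI in 2.09% and 4.16% of these cells in XX WT and in 6.89% and 13.5% in XX -KTS KO. Without thinning the means were higher, 67.2% for Tcf21 in XX WT and 95.4% in XY WT, and 5.29% and 20.6% for Osr1 in XX WT and XX -KTS KO. Endothelial-like cells were taken as a comparison for Osr1 and Tcf21. After thinning, Osr1 was at 0% in them in 10 of the 12 libraries and at 0.971% and 2.70% in the other two. Tcf21 was at 0.418% and 1.32% in XX WT but at 19.7% and 16.6% in XY WT endothelial-like cells, whose median depths before thinning were 13820 and 15740 UMIs. In XY WT, 8.91% and 10.0% of supporting-like cells, with a mean median depth of 11170 UMIs, had a UMI of Tcf21. The endothelial-like share of XY WT cannot serve as a background for them, because one of the 2 endothelial-like clusters, with 439 cells of which 72.2% were XY WT, had 134 CPM of Tcf21 against 6.04 CPM in the other. The main germ-like cluster had 2.68 CPM. In XX and XY -KTS KO the supporting-like shares of 14.3% to 21.6% were above the endothelial-like shares of 1.19% to 9.09%. The endothelial-like share was itself higher in XX -KTS KO, at 6.76% to 9.09% of 118 cells, than in XX WT.

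**Figure D2:**
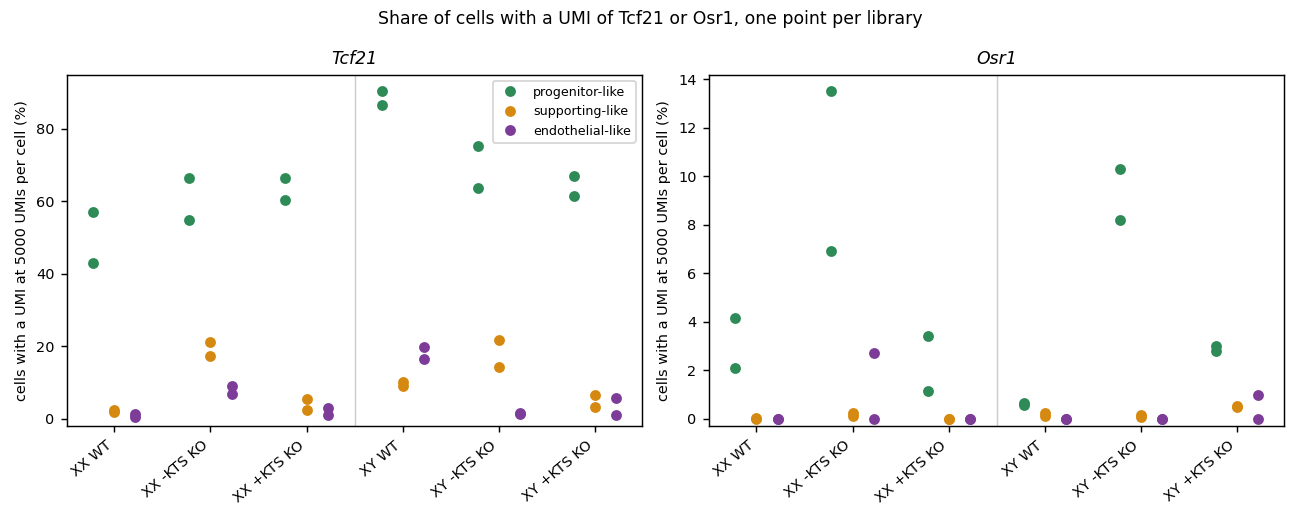
Share of cells with at least 1 UMI of Tcf21 (left) or Osr1 (right) after thinning every cell to 5000 UMIs, 1 point per library, for progenitor-like, supporting-like and endothelial-like cells in the 6 groups. Progenitor-like shares of Tcf21 lie above 42% in every library, and Osr1 shares in progenitor-like cells are highest in the 4 -KTS KO libraries.

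Within progenitor-like cells at that depth, Tcf21 and Nr2f2 were found together in a median of 37.9% of cells (23.7% to 48.8% over the 12 libraries), 1.01 to 1.30 times the product of their separate shares. Nr2f1 and Osr1 were found together 1.39 to 3.18 times as often as that product, in all 12 libraries. No cell had both Osr1 and Lhx2. Lhx2 itself had a UMI in only 0.127% to 0.588% of these cells (group means), too few to read the absence as exclusion. These ratios are descriptions and rest on cells that share a library.

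UMIs of the gonadal somatic cells were then summed library by library and the groups compared with edgeR's quasi-likelihood test, adjusted over 17726 genes. In such sums, more cells with a transcript and more transcripts per cell cannot be told apart. All 6 members passed the filter on low counts. Against the WT of the same sex, 2 members passed an adjusted p of 0.05 in XX -KTS KO (16.4% of all genes tested did), 3 in XY -KTS KO (23.6% of all genes), 1 in XX +KTS KO (5.0%) and 3 in the XY +KTS KO (12.7%). Between XY WT and XX WT, 3 of 6 passed (13.7% of all genes). In the 2 tests of whether a mutant's effect differed between the sexes, none of the 6 passed, where 3.06% of all genes did for -KTS KO and 4.0% for +KTS KO. At an unadjusted p under 0.05, 2 of the 6 (Nr2f1 and Maf) were below for -KTS KO and 4 (Tcf21, Maf, Osr1 and Lhx2) for +KTS KO, as were 3254 and 3491 of all 17726 genes. DESeq2 called 1 member for +KTS KO, Tcf21. The mutants of 1 sex were compared with the same 2 WT libraries, so their comparisons are not independent.

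**Figure D3:**
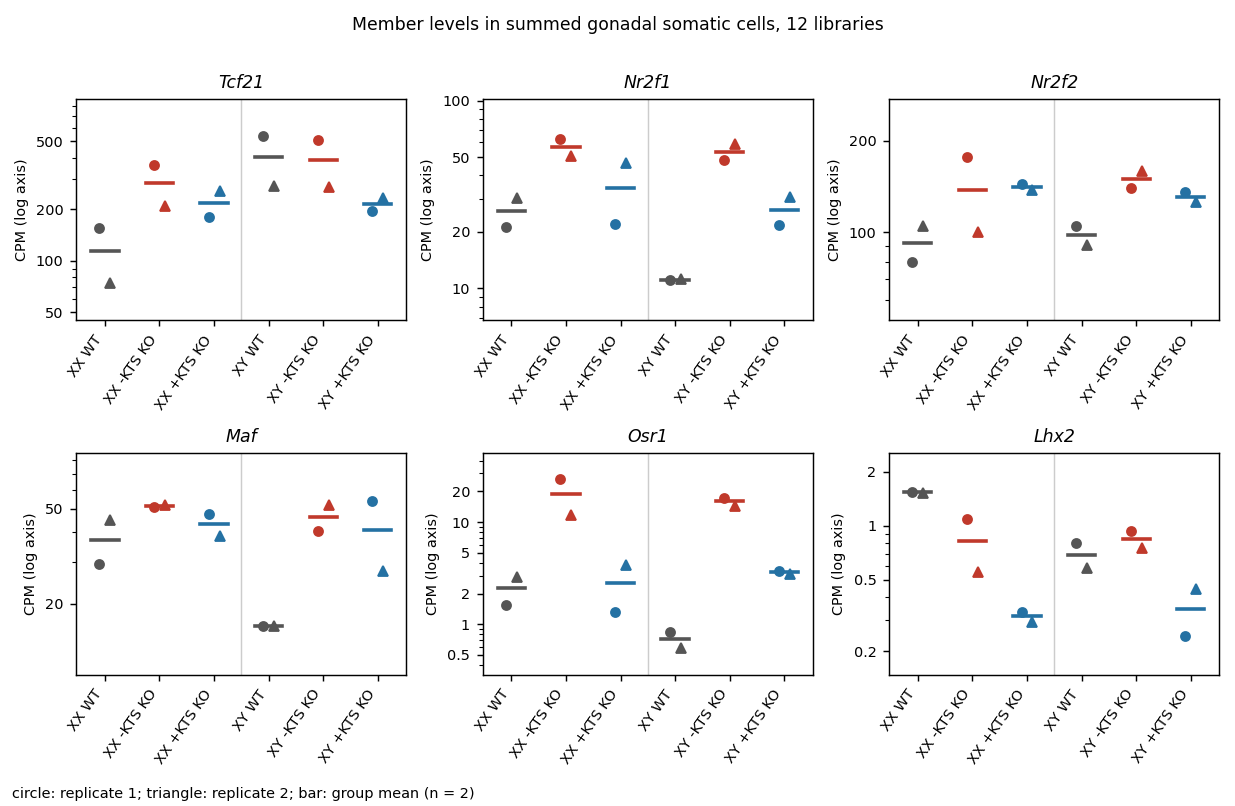
CPM of each member in the summed gonadal somatic cells of the 12 libraries (log axis), circles for replicate 1, triangles for replicate 2, bars for the mean of 2. Osr1 and Nr2f1 are higher in all 4 -KTS KO libraries than in any WT library, and Lhx2 is highest in the 2 XX WT libraries.

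Tcf21 was the member with the largest sex difference in WT gonads and no called mutant difference in the whole somatic sum. Its levels were 155 and 74.3 CPM in XX WT and 537 and 272 CPM in XY WT, a difference of 1.82 ± 0.46 on the log2 scale (SE, n = 2 libraries a group, edgeR adjusted p = 0.0298), or 3.53-fold. The groups did not overlap. The call was lost without XY WT replicate 1 (adjusted p = 0.209) or without XX WT replicate 2 (adjusted p = 0.189), and when all kept cells were summed or doublets kept. Without XX WT replicate 1 the difference was 2.45 and passed. XX -KTS KO libraries had 362 and 209 CPM, above both XX WT libraries, and the log2 difference of 1.32 ± 0.46 had an edgeR adjusted p of 0.0792. It passed with DESeq2 (adjusted p = 0.0158) and with no filter on low counts (adjusted p = 0.0150). XY -KTS KO libraries had 508 and 272 CPM, which overlapped XY WT (log2 difference -0.05 ± 0.45, edgeR adjusted p = 0.948). In +KTS KO the 4 libraries lay between 180 and 256 CPM in both sexes, higher than XX WT by 0.93 ± 0.45 and lower than XY WT with a log2 difference of -0.91 ± 0.45, and neither passed (edgeR adjusted p = 0.322 and 0.204). The difference between these 2 effects was -1.84 ± 0.64 (edgeR adjusted p = 0.146).

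In supporting-like cells, which lay in different clusters in the 2 groups, Tcf21 was higher in XX -KTS KO. Cluster 6, with 99.4% of the class in XX -KTS KO, had 69.1 CPM of Tcf21. Cluster 2, with 80.4% of it in XX WT, had 7.24 CPM. The part of the different clusters in this difference was not tested. XX WT had 6.89 and 5.04 CPM and XX -KTS KO had 64.9 and 80.8 CPM, a rise of 3.61 ± 0.40 on the log2 scale (edgeR adjusted p = 0.000181), or 12.2-fold. This held without any one of the 4 libraries and under every alternative tried, with adjusted p at most 0.00337. At the fixed depth, supporting-like shares with a UMI of Tcf21 were 17.2% to 21.1% in XX -KTS KO and 1.90% to 2.29% in XX WT. Endothelial-like shares were also higher in XX -KTS KO, at 6.76% to 9.09% against 0.418% to 1.325% in XX WT. The part of background in the XX rise was not tested. In supporting-like cells, XY -KTS KO had 98.9 and 47.7 CPM against 44.3 and 49.2 CPM in XY WT, overlapping values (log2 difference 0.65 ± 0.36, edgeR adjusted p = 0.210). That difference passed with no filter on low counts (adjusted p = 0.00980) and with log-normalized clustering, where it was 2.502 (adjusted p = 0.000223). XY +KTS KO had 16.4 and 5.67 CPM, lower than XY WT with a log2 difference of -1.88 ± 0.39 (edgeR adjusted p = 0.00676) and of -3.08 without XY +KTS KO replicate 1, but with clusters formed on log-normalized counts it was higher by 2.86, so its direction changed with the clustering. XX +KTS KO had 11.2 and 12.1 CPM, above both XX WT libraries, and did not pass (0.96 ± 0.45, edgeR adjusted p = 0.284). It passed at a clustering resolution of 0.4, with no filter on low counts and with log-normalized clustering, where the difference was 4.18. In progenitor-like cells none of the 4 mutant differences of Tcf21 passed (edgeR adjusted p from 0.230 to 0.638).

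Nr2f1 was higher in -KTS KO gonads of both sexes. XX WT libraries had 21.4 and 30.5 CPM and XX -KTS KO libraries 62.7 and 50.8 CPM, without overlap, a rise of 1.13 ± 0.32 on the log2 scale (edgeR adjusted p = 0.0410), or 2.19-fold. Leaving out any one of these 4 libraries ended that call, with adjusted p up to 0.25 without XX WT replicate 1, as did summing all kept cells or keeping doublets. XY WT had 11.1 and 11.2 CPM and XY -KTS KO 48.3 and 59.0 CPM, a rise of 2.27 ± 0.34 (edgeR adjusted p = 0.00138), or 4.82-fold, and this call held without any one library (adjusted p at most 0.0138). XY +KTS KO libraries, at 21.7 and 30.8 CPM, were also above XY WT, by 1.24 ± 0.33 (edgeR adjusted p = 0.0370). Without XY WT replicate 1 that call was lost (adjusted p = 0.170), and it was lost too without XY WT replicate 2 or XY +KTS KO replicate 2, and with all kept cells or doublets kept. XX +KTS KO, at 21.995 and 46.8 CPM, overlapped XX WT (0.41 ± 0.32, edgeR adjusted p = 0.590). Among WT gonads the level was lower in XY than in XX, with a log2 difference of -1.22 ± 0.33 (edgeR adjusted p = 0.0364), a call that was lost without any one of the 4 libraries (adjusted p up to 0.214) and with all kept cells or doublets kept.

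By level, the 4 -KTS KO libraries stood at the top for Nr2f1, the 2 XY WT libraries at the bottom, and the XX WT and +KTS KO libraries overlapped in between. The XY -KTS KO rise was also seen in the class sums, at 1.98 ± 0.34 in progenitor-like cells (edgeR adjusted p = 0.00303) and 2.10 ± 0.24 in supporting-like cells (edgeR adjusted p = 9.88e-05). Both classes mix clusters that differ between the groups. The largest progenitor-like cluster was 1 in XY -KTS KO (matrix-rich mesenchyme-like, 95.4 CPM of Nr2f1) and 10 in XY WT (interstitial-like, 12.3 CPM). Of the supporting-like clusters, 6 of XY -KTS KO had 22.6 CPM, and 12 and 14 of XY WT had 4.29 and 7.90 CPM. The part of this in the rises was not tested. In XX -KTS KO neither class passed, at 1.01 ± 0.33 in progenitor-like cells (edgeR adjusted p = 0.0887, passing with DESeq2 and with no filter on low counts) and 0.59 ± 0.23 in supporting-like cells (edgeR adjusted p = 0.106). In XY +KTS KO, Nr2f1 rose in supporting-like cells, from 3.86 and 6.62 CPM in XY WT to 11.2 and 14.7 CPM (1.23 ± 0.26, edgeR adjusted p = 0.00663), under all 11 alternatives tried. Those XY +KTS KO cells lay mostly in cluster 9, which had 13.4 CPM of Nr2f1 and came mostly from replicate 1. In progenitor-like cells Nr2f1 did not pass (1.19 ± 0.34, edgeR adjusted p = 0.0675). In matrix-rich mesenchyme-like cells, Nr2f1 was at 29.8 and 32.7 CPM in XY WT and at 68.1 and 88.6 CPM in XY -KTS KO, while the XX WT range of 62.4 to 90.3 CPM enclosed that of XX -KTS KO, 69.5 to 87.7 CPM.

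Nr2f2, the paralogue of Nr2f1, passed in none of the somatic comparisons. The WT libraries had 79.9 and 105 CPM of Nr2f2 in XX and 105 and 90.7 CPM in XY. In -KTS KO there were 177 and 99.9 CPM in XX and 140 and 159 CPM in XY, and in +KTS KO 145 and 138 CPM in XX and 135 and 126 CPM in XY. The 2 XY -KTS KO and 4 +KTS KO libraries lay above all 4 WT libraries, and XX -KTS KO replicate 2 lay among them. None of the 4 mutant differences in the somatic sum passed, with log2 values from 0.42 to 0.61 (edgeR adjusted p from 0.0897 to 0.256), and the WT groups of the 2 sexes differed by 0.08 ± 0.24 (edgeR adjusted p = 0.859). Without XX -KTS KO replicate 2, the library with few barcodes past the filters, the XX -KTS KO difference was 0.95 and its adjusted p 0.0221.

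In supporting-like cells Nr2f2 was called in 3 of 4 comparisons. It was at 19.7 and 26.6 CPM in XY WT, 50.4 CPM in both XY -KTS KO libraries and 52.1 and 63.9 CPM in XY +KTS KO, rises of 1.12 ± 0.21 (edgeR adjusted p = 0.00214) and 1.31 ± 0.21 (edgeR adjusted p = 0.00178) that held without any one library. With log-normalized clustering they were larger, at 2.28 and 2.91. The groups lay in different clusters. Cluster 12, the Sertoli-like cluster with 57.9% of the XY WT class, had 13.3 CPM of Nr2f2. Cluster 14, the pre-supporting-like cluster with 38.45% of it, had 42.7 CPM. Clusters 6 and 9, the largest of the class in XY -KTS KO and XY +KTS KO (cluster 9 mostly from replicate 1), had 47.9 and 59.0 CPM. The part of this in the rises was not tested. In XX, Nr2f2 was at 35.5 and 49.6 CPM in WT and 95.0 and 78.7 CPM in +KTS KO, a rise of 1.03 ± 0.21 (edgeR adjusted p = 0.0191). That call was lost without XX WT replicate 1 or either +KTS KO library (adjusted p up to 0.173), which held 326 and 112 supporting-like cells. These XX groups also lay in different clusters. Clusters 29 and 28, the largest of the class in XX +KTS KO, had 93.0 and 53.2 CPM of Nr2f2. Cluster 2, the largest in XX WT, had 42.7 CPM. The part of these clusters in the XX rise was not tested. In XX -KTS KO the supporting-like levels of 51.7 and 45.2 CPM overlapped those of XX WT.

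Maf was lowest in XY WT, at 16.1 CPM in both libraries. XX WT had 29.2 and 44.6 CPM, so that XY was lower by a log2 difference of -1.20 ± 0.30 (edgeR adjusted p = 0.0268), a call that was lost without either XY WT library or XX WT replicate 2 (adjusted p up to 0.168). Unnamed cluster 25, with 91.4% of its cells from XX WT, had 165 CPM of Maf. Its part in the difference between the WT sexes was not tested. The 8 mutant libraries ranged from 27.5 to 53.8 CPM. In XY -KTS KO, at 40.2 and 51.7 CPM, Maf was 2.86-fold higher than in XY WT (1.52 ± 0.30, edgeR adjusted p = 0.00596), also without any one library. In XY +KTS KO, at 53.8 and 27.5 CPM, it was 2.53-fold higher (1.34 ± 0.30, edgeR adjusted p = 0.0200). The higher value belongs to replicate 1, the library with high immediate early genes, and without it the difference was 0.79 and no longer passed. The call was lost also without either XY WT library (adjusted p up to 0.108). The XX mutants, at 51.0 and 51.6 CPM for -KTS KO and 47.4 and 38.4 CPM for +KTS KO, did not pass against XX WT (edgeR adjusted p = 0.317 and 0.788).

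The summed level of 7 immune markers in the somatic sums was 0.609 to 0.838 CPM in XY WT, 0.624 to 0.849 in XY -KTS KO and 0.412 to 0.864 in XY +KTS KO, overlapping ranges. In XX it was 0.704 to 0.819 CPM in WT, 0.614 to 1.06 in -KTS KO and 1.38 to 1.48 in +KTS KO, which lay above WT, and its part in the Maf values was not tested. Within supporting-like cells Maf passed in all 4 comparisons. It was at 10.7 and 9.48 CPM in XY WT and at 24.2 and 27.4 CPM in XY -KTS KO and 37.8 and 33.3 CPM in XY +KTS KO, rises of 1.36 ± 0.22 (edgeR adjusted p = 0.000959) and 1.83 ± 0.23 (edgeR adjusted p = 0.000383) that held without any one library. With log-normalized clustering they were 2.14 and 2.57. Cluster 12, the largest of this class in XY WT, had 5.87 CPM of Maf, and cluster 14, the next largest, had 19.0 CPM. Clusters 6 and 9, the largest in XY -KTS KO and XY +KTS KO (cluster 9 mostly from replicate 1), had 30.2 and 45.0 CPM. The part of these different clusters in the rises was not tested. XX WT libraries had 18.8 and 24.6 CPM, -KTS KO 34.8 and 43.0 CPM and +KTS KO 56.2 and 35.3 CPM. Cluster 2, the largest of the class in XX WT, had 20.7 CPM of Maf, and cluster 6 of XX -KTS KO had 30.2 CPM. Clusters 29 and 28 of XX +KTS KO had 36.6 and 26.9 CPM. The part of these clusters in the XX differences was not tested. The XX rises were 0.84 ± 0.22 for -KTS KO (edgeR adjusted p = 0.0212) and 1.10 ± 0.23 for +KTS KO (edgeR adjusted p = 0.0200). Both were lost at a clustering resolution of 0.4, with log-normalized clustering and without XX WT replicate 1. The first was lost also without XX -KTS KO replicate 2 and the second without XX +KTS KO replicate 1. In progenitor-like cells Maf rose in XY -KTS KO, from 19.4 and 24.0 CPM to 45.7 and 59.5 CPM (1.28 ± 0.33, edgeR adjusted p = 0.0190). That call was lost without either XY WT library or XY -KTS KO replicate 2 (adjusted p up to 0.121). The groups lay in different clusters here as well. Cluster 1, the largest in XY -KTS KO, had 84.4 CPM of Maf, and cluster 10, the largest in XY WT, had 20.2 CPM.

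Osr1 had the largest -KTS KO differences of the 6 in the somatic sums of both sexes. It was at 1.55 and 2.93 CPM in XX WT and 26.3 and 11.8 CPM in XX -KTS KO, a rise of 3.08 ± 0.53 on the log2 scale (edgeR adjusted p = 0.00439), or 8.45-fold. In XY it was at 0.842 and 0.584 CPM in WT and 17.4 and 14.5 CPM in -KTS KO, a rise of 4.48 ± 0.58 (edgeR adjusted p = 0.000679), or 22.3-fold. The 4 -KTS KO libraries lay well above all others, and both calls held without any one library (adjusted p at most 0.0463 and 0.00836), the first at 2.38 without XX -KTS KO replicate 1. XY +KTS KO, at 3.31 and 3.13 CPM, was 4.50-fold above XY WT (2.17 ± 0.55, edgeR adjusted p = 0.0318). That call was lost without any one of the 4 libraries (adjusted p up to 0.127) and with doublets kept. XX +KTS KO, at 1.33 and 3.80 CPM, overlapped XX WT (0.18 ± 0.51, edgeR adjusted p = 0.914). The 2 WT groups did not overlap but did not pass (-1.66 ± 0.55, edgeR adjusted p = 0.0774), except with DESeq2 (adjusted p = 0.0115) and with no filter on low counts (adjusted p = 0.0131).

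The matrix-rich mesenchyme-like class, where Osr1 was highest, also took a larger share of somatic cells in -KTS KO, 57.3% and 35.5% in XX and 54.1% and 48.4% in XY against 5.52% and 9.39% in XX WT and 2.43% and 3.91% in XY WT. The summed level of its 8 marker genes ranged in -KTS KO from 554 to 717 CPM (XX) and from 568 to 608 CPM (XY), and in WT from 206 to 272 CPM (XX) and from 180 to 219 CPM (XY), with none of the 8 at 0. The part of this larger class in the result was not tested. Within that class Osr1 was at 19.1 and 28.9 CPM in XX WT and 44.6 and 23.2 CPM in XX -KTS KO, overlapping values, and at 7.91 and 11.8 CPM in XY WT and 28.9 and 31.5 CPM in XY -KTS KO, which did not overlap. Over all progenitor-like cells the rises were 2.33 ± 0.47 in XX -KTS KO (edgeR adjusted p = 0.0121), 4.44 ± 0.55 in XY -KTS KO (edgeR adjusted p = 0.000527) and 2.46 ± 0.53 in XY +KTS KO (edgeR adjusted p = 0.0263). The first was lost without XX WT replicate 1 or XX -KTS KO replicate 1 (adjusted p up to 0.113), and the last without XY WT replicate 1, XY WT replicate 2 or XY +KTS KO replicate 1 (adjusted p up to 0.205). In supporting-like cells Osr1 was counted 4 and 4 times in XX WT and 24 and 10 times in XX -KTS KO, a called rise of 3.36 ± 0.78 (edgeR adjusted p = 0.0121) that was lost without either WT library or XX -KTS KO replicate 1 and under 2 other clusterings. At the fixed depth, 0.225% and 0.128% of these XX -KTS KO cells had a UMI of Osr1, against 0% and 2.70% of endothelial-like cells. Only 118 endothelial-like cells of both libraries reached that depth. The comparison therefore cannot decide whether these UMIs come from supporting-like cells, and no expression there is concluded.

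Lhx2 was rare, with 20 to 141 UMIs per library in the whole somatic sum. It was highest in XX WT, at 1.55 and 1.52 CPM (106 and 141 UMIs), and lower in XX +KTS KO, at 0.332 and 0.292 CPM (31 and 25 UMIs), with a log2 difference of -2.29 ± 0.41 (edgeR adjusted p = 0.0138), or 4.90-fold. The 2 groups lay far apart, yet the call was lost without any one of the 4 libraries (adjusted p up to 0.123). With doublets kept and all cells summed the difference was -1.67 and passed. XX -KTS KO, at 1.09 and 0.555 CPM, did not pass (-0.89 ± 0.38, edgeR adjusted p = 0.150). XY WT had 0.799 and 0.584 CPM, XY -KTS KO 0.933 and 0.752 CPM, and XY +KTS KO 0.244 and 0.447 CPM. No XY mutant difference passed, and XY WT against XX WT did not pass either (-1.15 ± 0.39, edgeR adjusted p = 0.0812).

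In XY -KTS KO, Lhx2 was lower in progenitor-like cells and higher in supporting-like cells. The progenitor-like counts were low, at 45 and 25 UMIs in XY WT and 24 and 23 in XY -KTS KO. Cluster 1, the largest progenitor-like cluster of XY -KTS KO, had 0.338 CPM of Lhx2. Clusters 10 and 4 of XY WT had 0.547 and 0.996 CPM. The part of these clusters in the difference was not tested. In progenitor-like cells Lhx2 fell in both sexes, from 1.61 and 1.71 CPM in XX WT to 0.464 and 0.413 in XX -KTS KO (-1.91 ± 0.34, edgeR adjusted p = 0.00756) and from 1.04 and 0.892 CPM in XY WT to 0.458 and 0.373 in XY -KTS KO (-1.22 ± 0.35, edgeR adjusted p = 0.0297). Leaving out either XX -KTS KO library took the first to an adjusted p of up to 0.0561, and leaving out any of the 4 XY libraries ended the second, at up to 0.163, as did a clustering resolution of 1.2. In supporting-like cells it was at 0.151 and 0.368 CPM in XY WT (4 and 14 UMIs) and 2.25 and 1.89 CPM in XY -KTS KO (42 and 38 UMIs), a rise of 2.91 ± 0.59 (edgeR adjusted p = 0.00438) that held without any one library, at 3.69 without XY WT replicate 2. Cluster 12, the largest of this class in XY WT, had 0.252 CPM of Lhx2, and cluster 14, the next largest, had 0.342 CPM. Cluster 6 of XY -KTS KO had 2.07 CPM. In XX the supporting-like levels, 1.54 and 1.35 CPM in WT and 3.17 and 0.993 CPM in -KTS KO, overlapped. In XX +KTS KO supporting-like cells, 0 UMIs were counted in both libraries against 120 in XX WT. With 3 counts over the group as the limit that a count of 0 allows, the level was at least 2.92-fold lower in these libraries, but the difference did not pass (edgeR adjusted p = 0.0846). In XY +KTS KO 1 and 0 UMIs were counted against 4 and 14, which did not pass either (edgeR adjusted p = 0.0724). Both passed with no filter on low counts. Limits of this kind cover counting error only. In progenitor-like cells of XX +KTS KO, Lhx2 was lower by a log2 difference of -1.58 ± 0.34 (edgeR adjusted p = 0.0453). That call was lost without any one library and under 2 other clusterings.

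**Figure D4:**
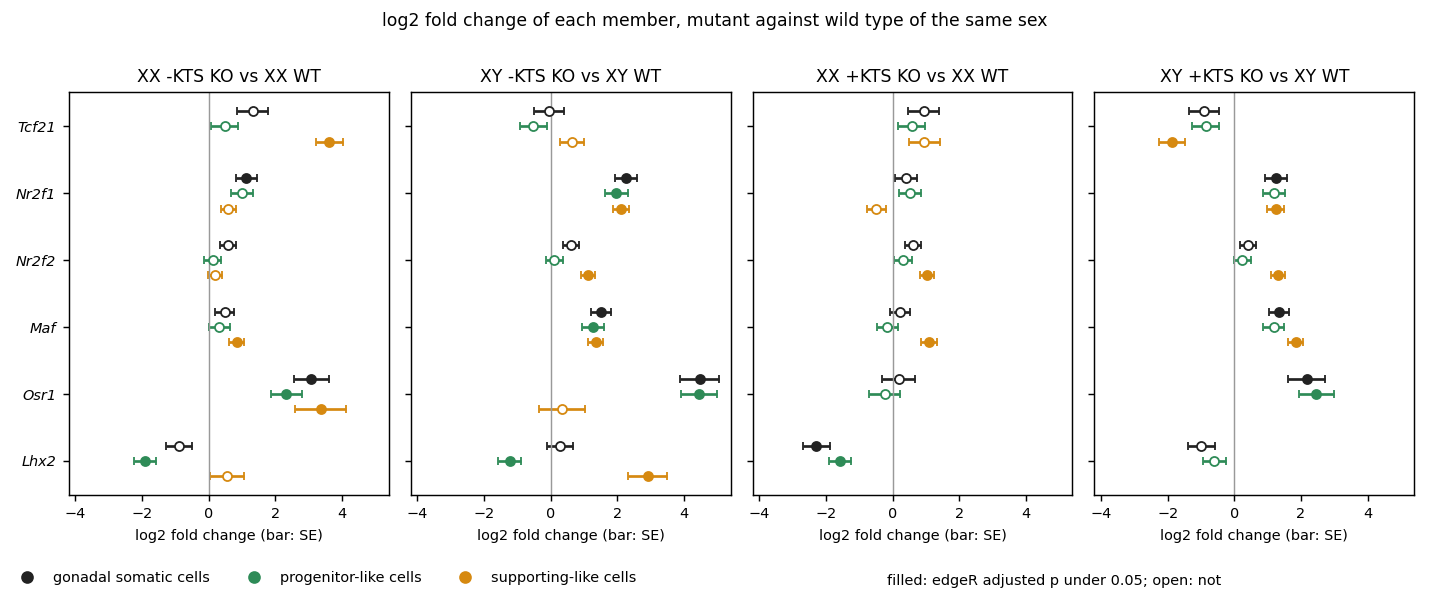
Log2 fold change of each member against WT of the same sex, with its SE (n = 2 libraries a group), in gonadal somatic, progenitor-like and supporting-like cells. Filled points have an edgeR adjusted p under 0.05. Osr1 and Lhx2 in supporting-like cells of the +KTS KO comparisons are not drawn, because at least 1 library held 2 UMIs or fewer. Osr1 lies farthest right in both -KTS KO panels in gonadal somatic and progenitor-like cells, and Lhx2 in progenitor-like cells lies left of 0 in all 4.

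Counted over classes, 3 members passed in supporting-like cells of XX -KTS KO (17.0% of the 15346 genes tested did), 4 in XY -KTS KO (29.3%), 2 in XX +KTS KO (4.73%) and 4 in the XY +KTS KO (21.7%). In progenitor-like cells, 2 passed in XX -KTS KO (9.31% of 16387 genes), 4 in XY -KTS KO (21.9%), 1 in XX +KTS KO (1.77%) and 1 in the XY +KTS KO (5.87%). All 6 members passed the filter in both classes. Interstitial-like cells allowed a test of 4 members, since Osr1 and Lhx2 did not pass the filter there, with 0 to 11 UMIs per library. In XX +KTS KO, Nr2f2 was higher by 0.85 ± 0.17 (edgeR adjusted p = 0.0325, 1 of 4 members where 0.872% of 11123 genes passed), at 298 and 259 CPM against 159 and 150 CPM. That call was lost without any one library and at a clustering resolution of 1.2 (adjusted p = 0.802). In XY +KTS KO, Maf was higher by 1.65 ± 0.24 (edgeR adjusted p = 0.00173, 1 of 4 where 4.30% of genes passed), at 69.3 and 58.2 CPM against 19.7 and 20.2 CPM. It held without any one library but not at a clustering resolution of 1.2 (adjusted p = 0.288). This compares 121 cells of XY +KTS KO with 3077 of XY WT. Cluster 10, with 94.8% of its cells from XY WT, had 20.2 CPM of Maf. Cluster 22, the other interstitial-like cluster, had 72.9 CPM. The part of these clusters in the Maf difference was not tested.

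The share of interstitial-like cells itself was 5.09% to 32.5% of somatic cells in the 4 WT libraries, highest in XY WT, 0 to 0.0727% in the 4 -KTS KO libraries and 0.418% to 2.30% in the 4 +KTS KO libraries. Both differences had p = 0.0286 in a two-sided exact permutation test of 4 libraries against 4, the smallest it can give, and 0.0571 after Benjamini-Hochberg adjustment over the 4 share tests made. The summed level of the 8 interstitial marker genes in the somatic sums went the other way, at 331.5 to 376.9 CPM in the 4 -KTS KO libraries against 195.7 to 294.6 CPM in the 4 WT libraries. The share changed with the clustering. Of the cells of cluster 10, the larger interstitial-like cluster, 94.8% came from XY WT. At a resolution of 1.2 the -KTS KO share was 21.8% against 12.2% in WT, the opposite direction. With log-normalized clustering it was 0% against 20.95%. The share of progenitor-like cells was 69.5% ± 9.6 (SD, n = 4) in -KTS KO and 45.2% ± 10.4 (SD, n = 4) in WT (two-sided exact permutation p = 0.0571, adjusted 0.0762), and 50.04% ± 4.0 (SD, n = 4) in +KTS KO (p = 0.371).

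Other genes of the interstitial lineage, a list of 22 chosen with earlier results of these data known, passed in part. The shares called over all genes are given beside the counts. The list holds hedgehog response genes (Gli1, Gli2, Gli3, Ptch1, Hhip), collagens and other matrix genes, and growth factors, receptors and transcription factors. In XX -KTS KO 9 of 22 passed (16.4% of all genes did), 8 higher and 1 lower, with a median log2 fold change of 0.85 against 0.01 over all genes. The chemokine gene Cxcl12 (2.52 ± 0.65, edgeR adjusted p = 0.0271) and Tbx3 (2.19 ± 0.62, edgeR adjusted p = 0.0383) rose most. Hhip, which encodes a hedgehog-binding inhibitor, fell from 47 and 78 UMIs in XX WT to 1 and 0. In XY -KTS KO 12 of 22 passed (23.6% of all genes), 8 higher and 4 lower, with a median of 0.54 against 0.01. Col1a1, a fibrillar collagen, rose by 3.71 ± 0.51 (edgeR adjusted p = 0.000873), while Gli1, a direct hedgehog target, had a log2 difference of -2.78 ± 0.66 (edgeR adjusted p = 0.0143). The XY WT libraries themselves differed, with 1.26 CPM of Gli1 in one and 6.39 CPM in the other. Hhip passed too, at 0 and 2 UMIs, but XY WT itself had 117 and 1.

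In XX +KTS KO 2 of the 22 passed (5.0% of all genes), Gli2 higher (1.27 ± 0.20, edgeR adjusted p = 0.00908) and Igf1 lower (-1.0005 ± 0.21, edgeR adjusted p = 0.0265), with a median of 0.26 against -0.00093 over all genes. In XY +KTS KO 3 of 22 passed, a share near the 12.7% of all genes, all collagens and all higher, Col1a1 by 2.30 ± 0.48, Col1a2 by 1.08 ± 0.31 and Col3a1 by 0.56 ± 0.15 (edgeR adjusted p = 0.0147, 0.0468 and 0.0352), with a median of 0.23 against 0.05. Between WT sexes 5 passed (13.7% of all genes), with Gli1, Gli2 and Ptch1 higher in XY and Igf1 and Col1a1 lower, and a median of 0.11 against -0.02. The largest of these were Gli1 (2.80 ± 0.66, edgeR adjusted p = 0.0221, with the same spread between the XY WT libraries), Ptch1 (2.08 ± 0.37, edgeR adjusted p = 0.00636) and Igf1 (-1.80 ± 0.21, edgeR adjusted p = 0.000975).

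The paralogues of the members, a list of 18 of which 14 were tested, passed in both directions. Of the 14, those that passed were 1 higher and 3 lower in XX -KTS KO (16.4% of all genes passed) and 1 higher and 4 lower in XY -KTS KO (23.6%). Of the same 14, 4 passed in XX +KTS KO, all higher (5.0% of all genes), in XY +KTS KO 1 higher and 2 lower (12.7%), and in XY WT against XX WT 4 higher and 1 lower (13.7%). The median log2 fold changes over all 14, passed or not, were 0.42, -0.90, 1.10, -0.06 and 1.11, against medians over all genes of 0.01, 0.01, -0.00093, 0.05 and -0.02. Osr2, the paralogue of Osr1, went the other way in -KTS KO. It was at 5.93 and 6.01 CPM in XX WT and 0.592 and 0.376 CPM in XX -KTS KO (-3.60 ± 0.49, edgeR adjusted p = 0.00133), and at 3.72 and 1.36 CPM in XY WT and 0.410 and 0.376 CPM in XY -KTS KO (-2.69 ± 0.48, edgeR adjusted p = 0.00358). In XY +KTS KO, Osr2 was higher, at 8.63 and 8.24 CPM (1.73 ± 0.43, edgeR adjusted p = 0.0298).

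Of the other nearest paralogues, Lhx9, a LIM homeodomain factor needed for gonad formation, was higher in XY -KTS KO by 0.79 ± 0.17 (edgeR adjusted p = 0.00956) and lower in XY WT than XX WT (-0.91 ± 0.17, edgeR adjusted p = 0.00841). Nr2f6 was lower in XX -KTS KO (-0.72 ± 0.16, edgeR adjusted p = 0.0159). Msc, the paralogue of Tcf21, did not pass in any of the 5 comparisons.

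Over the 12 somatic sums, the genes with the pattern most like each member were found by Pearson's r of log2(CPM + 1) among 5680 genes with a mean of at least 20 CPM. For Osr1 these were Gas1 (r = 0.980), Fzd2 (0.979) and Col3a1 (0.979), and for Nr2f1 they were Col1a1 (0.975), Tfdp2 (0.953) and Igf2r (0.926). Tcf21 was nearest to Fbxo9 (0.959), Dnajc21 (0.930) and Arf4 (0.915), and Nr2f2 to Zfp1 (0.885), Tspyl1 (0.877) and Marcks (0.844). Maf was nearest to 4931406C07Rik (0.967), Ddhd2 (0.925) and Spop (0.925), and Lhx2 to Plin2 (0.916), Ifi27 (0.897) and Rasl11a (0.893). Among the members, Nr2f1 and Osr1 were the closest pair (r = 0.907), followed by Nr2f1 and Maf (0.764), while Tcf21 had values of -0.326 to 0.327 with the other 5. All points share libraries and group differences, so these values are descriptions.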

How the data were processed

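The deposited files hold UMI counts per gene and cell, not normalized, which the authors made with Cell Ranger 6.0 on mm10. The labels name the version of the 3' kit differently from the methods. Barcodes were kept from 1000 genes up and with a mitochondrial share of no more than 10%, and the highest Scrublet scores (scanpy 1.11.5) were removed as doublets at 0.8% per 1000 barcodes, since its own threshold called 3 or fewer barcodes in 4 libraries. Cells were clustered on sctransform 0.4.2 residuals (Seurat 5.3.0, 3000 variable genes without the members, 50 components, resolution 0.8). UMIs were summed per library and cell class and tested with edgeR 4.0.16 in R 4.3.3 (quasi-likelihood, TMM, filterByExpr, 6 groups of 2 libraries, Benjamini-Hochberg, threshold 0.05), after a test on simulated data. Each SE was computed back from the edgeR test, as the absolute log2 difference over the square root of its F statistic. It thus rests on a spread estimated over all 12 libraries, not on the 2 libraries a group alone. DESeq2 1.42.0 was an alternative. The members and lists were chosen with earlier results of these data known, and the progenitor-like class and the immediate early list after these data were seen. Named genes are the members, the 3 largest called changes of the interstitial list, the nearest paralogues (1 is not reported here) and the 3 genes most like each member. Totals of 108111924 to 147968666 UMIs per library set the precision. No column lacked a sample.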

Additional observations from a re-analysis of the deposited data

How the results depend on the processing

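The alternatives were DESeq2, another scaling (RLE), no filter on low counts, the replicate number as a block, other clusterings, all kept cells, doublets kept and leaving out each library. Osr1 in both -KTS KO comparisons of gonadal somatic cells, Nr2f1 and Maf in XY -KTS KO and Tcf21 in supporting-like cells of XX -KTS KO passed under every alternative run. So did Nr2f1, Nr2f2, Maf and Lhx2 in supporting-like cells of XY -KTS KO, Nr2f1, Nr2f2 and Maf in those of XY +KTS KO, and Nr2f1 and Osr1 in progenitor-like cells of XY -KTS KO. In the supporting-like and progenitor-like classes, the groups compared lay mostly in different clusters. The -KTS KO comparisons in interstitial-like cells could not be run in the main clustering, and at a resolution of 0.4 no interstitial-like cluster was named. Where a call or direction changed, the cause was not tested.

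Changes of the number of members called by over 1.5 times are given here. In gonadal somatic cells it changed to 1 with all kept cells and with doublets kept, for XX -KTS KO and for XY WT against XX WT, and to 1 with doublets kept in XY +KTS KO. For the sex interaction of +KTS KO it was 1 with DESeq2 and with no filter on low counts. Smaller rises were to 3 in XX -KTS KO, where Tcf21 passed as well with DESeq2, no filter and the replicate block, and to 4 between the WT sexes, where Osr1 passed as well with DESeq2 and no filter. In interstitial-like cells it was 0 with the replicate block and at a resolution of 1.2 in XX +KTS KO, and 2 with no filter in XY +KTS KO. In supporting-like cells it was 1 at a resolution of 0.4 and with log-normalized clustering in XX -KTS KO, and 4 with no filter in XX +KTS KO. In progenitor-like cells it was 0 with the replicate block, at a resolution of 1.2 and with log-normalized clustering for XX +KTS KO. For XY +KTS KO it was 3 with DESeq2, 4 with no filter and 2 with log-normalized clustering.

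Leaving out 1 library gave 1 to 2 members called in gonadal somatic cells of XX -KTS KO, 0 to 0 of XX +KTS KO, 0 to 1 of XY +KTS KO, 0 to 2 between the WT sexes and 0 to 1 for the sex interaction of +KTS KO. It gave 0 to 0 in interstitial-like cells of XX +KTS KO. In supporting-like cells it gave 1 to 2 in XX -KTS KO and 0 to 2 in XX +KTS KO. In progenitor-like cells it gave 0 to 2 in XX -KTS KO, 2 to 3 in XY -KTS KO, 0 to 0 for XX +KTS KO and 0 to 2 for XY +KTS KO.

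The share of interstitial-like cells differed by -15.5 percentage points in -KTS KO and was reversed at a resolution of 1.2, at 9.62. Without 1 library it ran from -19.0 to -9.89, and in +KTS KO from -17.6 to -8.49, with an exact permutation p of 0.0571, the smallest possible there. The share of progenitor-like cells in +KTS KO, 4.89 points higher, was reversed at a resolution of 1.2, at -0.280, and with log-normalized clustering, at -2.31.

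Of the member results, 1 that had passed turned its direction. This was Tcf21 in supporting-like cells of XY +KTS KO, at 2.86 with log-normalized clustering. The other reversals were of log2 differences that did not pass in the main test. In gonadal somatic cells, Tcf21 in XY -KTS KO became 0.090 with all kept cells, 0.094 with doublets kept, 0.33 without XY -KTS KO replicate 2 and, over the libraries left out, from -0.58 to 0.51. In XX +KTS KO, leaving out 1 library gave -0.22 to 0.85 for Nr2f1, -0.056 to 0.55 for Maf and -0.75 to 0.75 for Osr1. Nr2f2 between the WT sexes ran from -0.099 to 0.28 in this way, and its -KTS KO sex interaction from -0.33 to 0.50.

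In interstitial-like cells of XX +KTS KO, a resolution of 1.2 gave -0.57 for Tcf21, -0.053 for Nr2f1 and -0.84 for Maf. Without 1 library Nr2f1 ran from -0.39 to 0.43 and Maf from -0.25 to 0.31 there, and Nr2f1 in XY +KTS KO from -0.23 to 0.63. At a resolution of 1.2 that Nr2f1 difference was 1.56 and passed (edgeR adjusted p = 0.0343). In supporting-like cells of XX -KTS KO, leaving out 1 library gave -0.050 to 0.45 for Nr2f2 and -0.54 to 1.14 for Lhx2. Osr1 in XY -KTS KO was -0.49 with log-normalized clustering, and -1.22 to 1.11 without 1 library. In XX +KTS KO, Nr2f1 was 0.37 at a resolution of 0.4 and 0.068 with log-normalized clustering, and Osr1 ran from -4.28 to 1.38 without 1 library, on 1 and 0 UMIs. In progenitor-like cells of XX -KTS KO, Tcf21 ran from -0.0020 to 1.14 and Nr2f2 from -0.44 to 0.52 without 1 library. In XX +KTS KO, Nr2f1 ran from -0.19 to 0.99, Maf from -0.42 to 0.17 and Osr1 from -1.08 to 0.30.

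The replicate numbers showed no common pairing over all groups. The 15 correlations of same-numbered libraries' deviations ran from -0.280 to 0.323, and 6 were over 0.1. This check cannot exclude pairing by replicate number within some of the groups. With the number as a block, Tcf21 in gonadal somatic cells of XX -KTS KO passed as well, while Nr2f2 in interstitial-like cells (edgeR adjusted p = 0.0722) and Lhx2 in progenitor-like cells (edgeR adjusted p = 0.0692) of XX +KTS KO no longer passed. It changed no other call of a member.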
